A study of Bos taurus with 6 samples.

Results

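The genes described here are 10 genes of the blood vessel lining and of the VEGF pathway, namely VEGFA, VEGFB, KDR, FLT1, PECAM1, CDH5, TEK, CLDN5, PDGFB and VWF. They were chosen by name, with earlier results of these data known, and 9 of the 10 were found among the 17258 genes listed in the files. VWF was not analysed here. The longissimus dorsi, the long muscle of the back, was taken from 3 Shandong black cattle (B1, B2 and B3) and 3 Luxi cattle (L1, L2 and L3) at 18 months of age, and 1 RNA-Seq library was made per animal. Shandong black cattle were bred by crossing Japanese black cattle with the Luxi and Bohai black breeds, so the breed compared with Luxi cattle carries Luxi ancestry itself, and the animals of each breed came from a company of their own and were kept under the same feeding management. Breed and herd of origin cannot be told apart in this design, and no treatment is named.

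Capillaries lie along the fibres of skeletal muscle and are lined by endothelial cells, which make up a small part of the tissue. VEGFA, made by muscle fibres and other cells, binds the receptors KDR and FLT1 on endothelial cells and drives the growth and survival of capillaries, with KDR passing on most of the signal and FLT1 also acting as a trap for the ligand. VEGFB binds FLT1 alone, TEK is the receptor of the angiopoietins, PDGFB is released by endothelial cells to recruit pericytes, and PECAM1, CDH5 and CLDN5 hold neighbouring endothelial cells together.

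Expression was measured as FPKM, the fragments of a transcript per kilobase of its length, scaled to the depth of the library and summed over the transcripts of a gene. The libraries held 14.1 to 14.6 gigabases of aligned sequence in Shandong black cattle and 17.5 to 17.99 in Luxi cattle. No counting error is known for these values, and their precision is limited by the number of animals. Of the 17258 genes, 9765 reached a mean of 1 FPKM in either breed and were tested with limma on log2(FPKM + 1). A gene was called when its Benjamini-Hochberg adjusted p was under 0.05 and its log2 fold change was 1 or more in size. Fold changes are Luxi cattle over Shandong black cattle, and the added 1 makes them too small for low genes. The skeletal muscle genes ACTA1 and MB had mean FPKM values of 37360 and 7105 in Shandong black cattle and 38090 and 7551 in Luxi cattle. The Luxi animals were uneven in ACTA1, with 12240 in L1, 54910 in L2 and 47110 in L3. All of the 9 endothelial and VEGF pathway genes found reached a mean of 1 in both breeds. Any other gene under that mean in 1 breed was tested only through a higher mean in the other, which favours that direction.

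None of the 9 genes was called by limma, against a background of 2.55% of all genes tested. The paper, which used Cuffdiff, lists VEGFA, KDR and PDGFB among the upregulated genes of focal adhesion, and its test was not rerun here. All 9 log2 fold changes lay above 0, as did those of 62.6% of all genes, with a median of 0.67, where the median of all 9765 genes was 0.13. When the libraries were scaled by size factors, 8 of the 9 were above 0, beside 51.5% of all genes, and the median was 0.55, beside 0.02 for all genes, and CLDN5 was the gene that turned below 0. At an unadjusted p under 0.05 there were 3 of the 9 genes, against 21.9% of all genes. In the same 3 genes, FLT1, PECAM1 and CDH5, each Luxi animal lay above each Shandong black animal, an order found in 20.0% of all genes. The opposite order was seen in 0 of the 9, against 9.1% of all genes. In bulk muscle, a difference in the number of endothelial cells and a difference in the RNA per endothelial cell cannot be told apart.

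The Luxi animal L1 stood apart for these genes. It had the highest FPKM of the 6 animals in 7 of the 9, all but VEGFB and CLDN5, while it was the highest in 23.2% of all genes tested. L1 lay above all 3 Shandong black animals in 8 of the 9 genes (40.3% of all genes), L2 in 5 of the 9 (45.7% of all genes) and L3 in 5 of the 9 (49.3% of all genes). Relative to the mean of the Shandong black cattle, the median of the 9 genes was higher by 1.65 in L1, by 0.28 in L2 and by 0.40 in L3 on the log2 scale, where the medians of all genes were 0.06, 0.13 and 0.18. Without L1 the median log2 fold change of the 9 genes was 0.16, beside 0.16 for all genes tested without L1, and 7 of the 9 were above 0. Each gene is therefore given below with and without this animal.

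**Figure D1:**
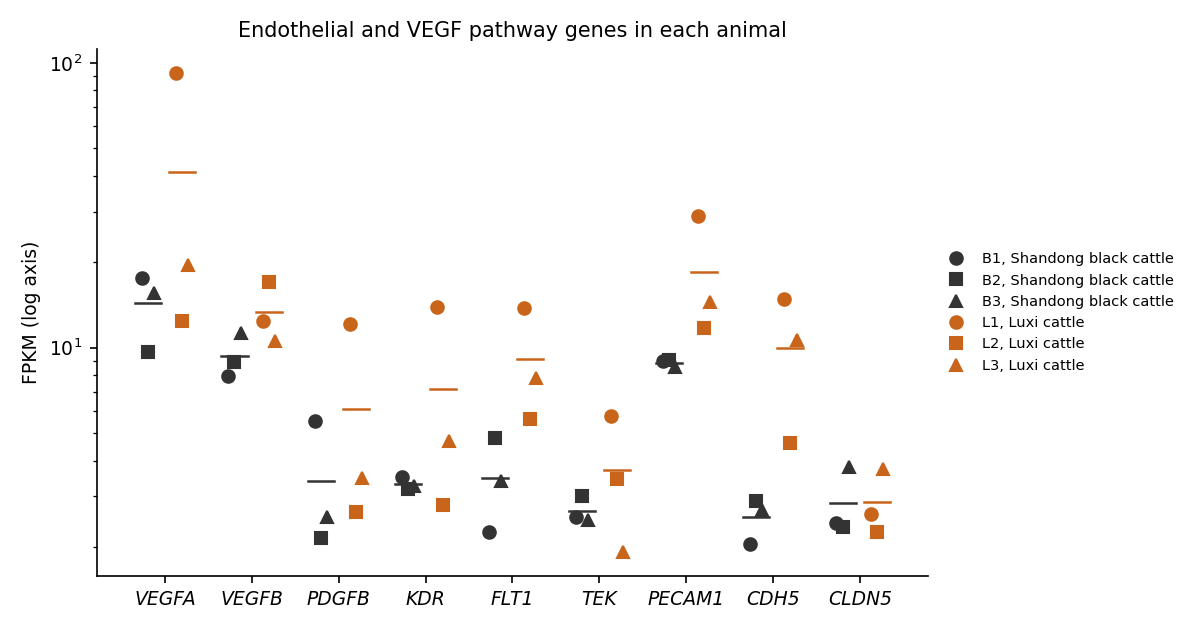
FPKM of the 9 genes in each animal on a log axis, with Shandong black cattle in black and Luxi cattle in orange, a symbol for each animal and a short line at the mean of each breed. L1 is the highest point in 7 of the 9 genes, and the breeds are fully separated in FLT1, PECAM1 and CDH5.

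VEGFA lies on chromosome 23 of ARS-UCD1.2 at chr23:17281915-17297193 on the plus strand. Its FPKM was 17.6, 9.65 and 15.6 in B1, B2 and B3 and 91.9, 12.4 and 19.5 in L1, L2 and L3. L1 held 5.89 times the median of the other 5 animals, while L2 and L3 lay within or just above the range of the Shandong black cattle. The means were 14.3 ± 4.13 (SD, n = 3) and 41.3 ± 44.0 (SD, n = 3), a log2 fold change of 0.99 with a standard error of 0.68 and a 95% confidence interval from -0.60 to 2.57 (limma, Benjamini-Hochberg adjusted p = 0.425). Without L1 the log2 fold change was 0.16 (limma, Benjamini-Hochberg adjusted p = 0.764). Assembled transcripts on the same strand that overlapped VEGFA but entered no gene carried a further 1.09, 5.91 and 0.94 FPKM in B1, B2 and B3. In L3 they carried 1.82, and in L1 and L2 they were at 0. With them added, an alternative chosen after seeing the data, the log2 fold change in all animals was 0.76.

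The files also show which forms of VEGFA were found. The full reference structure has 8 exons, of which exon 6 (chr23:17292573-17292644, 72 bases) and exon 7 (chr23:17293760-17293891, 132 bases) are the ones that alternative splicing skips. These exons encode the stretches with which VEGFA binds heparan sulfate, so forms without them are known to diffuse more freely. In 5 of the 6 animals most of the VEGFA FPKM was on a 7-exon structure of 2736 bases without exon 6, with 99.9, 78.6 and 90.5% in B1, B2 and B3 and 88.5 and 90.0% in L1 and L3. L2 differed from these animals, with 41.7% on that structure and 55.2% on the structure with all 8 exons. The 8-exon structure held 0.03, 12.5 and 9.28% in B1, B2 and B3, 9.25% in L1 and 4.76% in L3. The 6-exon structure without exons 6 and 7 held 0.06, 8.01 and 0.18% in B1, B2 and B3 and 2.07, 3.09 and 4.48% in L1, L2 and L3. The high VEGFA of L1 was thus spread over the structures in shares within the range of the Shandong black cattle. These shares were estimated by the assembler from reads that mostly fit several structures, and no test was made of them.

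**Figure D2:**
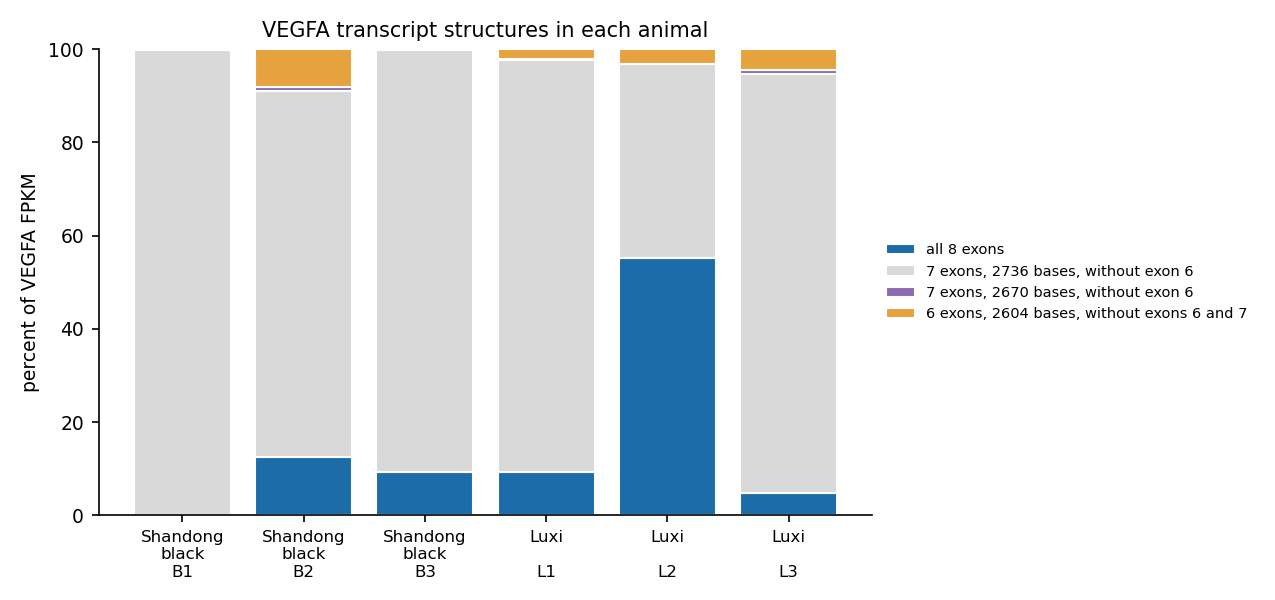
Share of the VEGFA FPKM, in percent, that each of 4 exon structures held in each animal. The 7-exon structure without exon 6 (grey) fills most of the bar in all animals but L2, where the 8-exon structure (blue) holds 55.2%.

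VEGFB, at chr29:42539203-42542594 on the plus strand, was the second most abundant ligand. Its FPKM was 7.93, 8.93 and 11.2 in B1, B2 and B3 and 12.4, 17.0 and 10.6 in L1, L2 and L3. Here L2 was the highest animal, L3 lay below B3, and L1 did not stand out. Its log2 fold change was 0.45 with a standard error of 0.24 (limma, Benjamini-Hochberg adjusted p = 0.307), and without L1 it was 0.49.

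PDGFB, at chr5:110665513-110686525 on the minus strand, had FPKM values of 5.51, 2.15 and 2.53 in B1, B2 and B3 and of 12.1, 2.64 and 3.48 in L1, L2 and L3. The replicates numbered 1 were the highest of both breeds, and L2 and L3 fell inside the range of the Shandong black cattle. Luxi over Shandong black cattle, the log2 fold change was 0.52 with a standard error of 0.51 (limma, Benjamini-Hochberg adjusted p = 0.578), and it was -0.045 without L1. Reference transcripts held at least 43.6% of the PDGFB of an animal. In B1 and L1 assembled transcripts brought 3.11 and 3.23 FPKM, so the level of these 2 animals rests most on the rule that added them.

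Of the receptors, KDR lies at chr6:70567551-70612680 on the minus strand. Its FPKM was 3.51, 3.18 and 3.27 in B1, B2 and B3 and 13.9, 2.81 and 4.71 in L1, L2 and L3. The Shandong black cattle lay close together, with an SD of 0.173 FPKM (n = 3), L1 was far above them, and L2 was the lowest of all 6 animals. The log2 fold change was 0.67 with a standard error of 0.46 and a 95% confidence interval from -0.39 to 1.74 (limma, Benjamini-Hochberg adjusted p = 0.421). Without L1 it was 0.11 (limma, Benjamini-Hochberg adjusted p = 0.741).

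FLT1, at chr12:31624080-31829381 on the plus strand, had an FPKM of 2.24, 4.80 and 3.39 in B1, B2 and B3 and of 13.8, 5.63 and 7.81 in L1, L2 and L3. The breeds did not overlap, with p = 0.1 in the exact permutation test, below which 3 animals against 3 cannot go. A log2 fold change of 1.13 with a standard error of 0.34 was not called (limma, Benjamini-Hochberg adjusted p = 0.121). It was 0.81 without L1 (limma, Benjamini-Hochberg adjusted p = 0.116), so the lead of the Luxi cattle in FLT1 was smaller without L1 but did not rest on it. However, transcripts on the same strand that overlapped FLT1 but entered no gene carried a further 3.14 FPKM in B1. They carried 0.56 in B2 and 3.22 in L1, and were at 0 in B3, L2 and L3. With such transcripts added, an alternative chosen after seeing the data, the FPKM of FLT1 in B1 was no longer the lowest and the log2 fold change was 0.85.

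FLT1 is known to give a short secreted receptor besides the full one. Most of its FPKM was on the reference transcript of 30 exons (76.0% in B1, where the rest was on assembled transcripts, and more in the other animals), with values from 1.70 in B1 to 13.4 in L1. Of the reference transcripts with 15 exons, which end before the later exons of the long one, the first held 0.25 FPKM in L1 and 0.20 in L2, and the second held 0.16 and 0.20. Both were at 0 in the other 4 animals.

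TEK, at chr8:17050131-17153179 on the minus strand, had an FPKM of 2.53, 3.02 and 2.48 in B1, B2 and B3 and of 5.74, 3.45 and 1.92 in L1, L2 and L3. The Luxi cattle held both the highest and the lowest value of the 6 animals. For TEK the log2 fold change was 0.28 with a standard error of 0.30 (limma, Benjamini-Hochberg adjusted p = 0.617), and it was -0.026 without L1. Reference transcripts held at least 58.7% of TEK in each animal.

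PECAM1, the adhesion protein CD31, lies at chr19:48525295-48588539 on the minus strand. Its FPKM was 8.97, 9.07 and 8.54 in B1, B2 and B3 and 28.99, 11.7 and 14.5 in L1, L2 and L3. The Shandong black cattle again lay close together, with an SD of 0.280 FPKM (n = 3), and all Luxi animals lay above them. The log2 fold change was 0.87 with a standard error of 0.32 (limma, Benjamini-Hochberg adjusted p = 0.178, exact permutation p = 0.1). Without L1 it was 0.51 (limma, Benjamini-Hochberg adjusted p = 0.0971), and the standard error was smaller. In B1 the FPKM of PECAM1 was on a 16-exon reference transcript (8.97), whereas in the other 5 animals it was on a 17-exon transcript whose start lies further upstream (8.91 in B2, 8.52 in B3, 27.5 in L1, 11.1 in L2 and 14.2 in L3). The sum over both does not depend on that assignment.

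CDH5, which encodes VE-cadherin, the main cadherin of endothelial junctions, lies at chr18:34122721-34161590 on the plus strand and had the largest log2 fold change of the 9 genes. Its FPKM was 2.04, 2.89 and 2.69 in B1, B2 and B3 and 14.8, 4.61 and 10.6 in L1, L2 and L3. All Luxi animals were above all Shandong black animals, and L1 and L3 were both well above L2. The means were 2.54 ± 0.442 (SD, n = 3) and 10 ± 5.12 (SD, n = 3), a log2 fold change of 1.52 with a standard error of 0.37 and a 95% confidence interval from 0.66 to 2.38. CDH5 was not called (limma, Benjamini-Hochberg adjusted p = 0.0766, exact permutation p = 0.1). Without L1 it was 1.198 (limma, Benjamini-Hochberg adjusted p = 0.0706). Without L2 it was 1.94 and CDH5 was called (limma, Benjamini-Hochberg adjusted p = 0.0379), the only call of any of the 9 genes in the settings tried.

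CLDN5, the claudin of endothelial tight junctions, is a gene of 1 exon at chr17:72734557-72735831 on the minus strand. Its FPKM was 2.41, 2.34 and 3.81 in B1, B2 and B3 and 2.60, 2.26 and 3.75 in L1, L2 and L3. The breeds covered nearly the same range, and L1 was not high. The log2 fold change was 0.0084 with a standard error of 0.22 and a 95% confidence interval from -0.51 to 0.53 (limma, Benjamini-Hochberg adjusted p = 0.987). L1 was thus the highest animal in PECAM1 and CDH5 but not in the third junction gene.

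**Figure D3:**
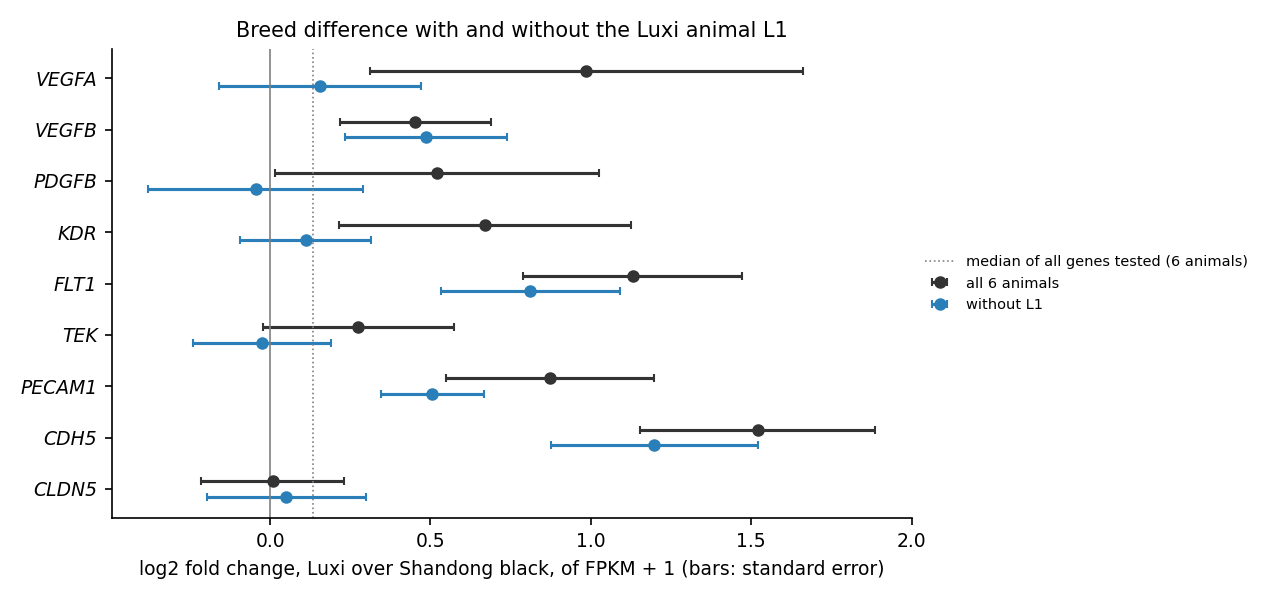
Log2 fold change of each gene, Luxi over Shandong black, with all 6 animals (black) and without L1 (blue). Bars are standard errors and the dotted line is the median of all genes tested. VEGFA, KDR, PDGFB and TEK move to near 0 without L1, while FLT1, PECAM1 and CDH5 stay at 0.81, 0.51 and 1.198.

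Ratios between genes within an animal are free of the scaling between libraries, apart from the added 1. The log2 ratio of KDR to FLT1 was 0.48, -0.47 and -0.04 in B1, B2 and B3 and 0.01, -0.80 and -0.63 in L1, L2 and L3. In L1 the receptors were in balance, as in B3, although both were high. The difference between the breeds was -0.46, with overlap (exact permutation test, two-sided, p = 0.3, and 0.45 when adjusted over the 3 ratios computed). Its size rested on single animals and on the transcripts counted, since it was -0.21 without B1, -0.30 without L2, -0.69 without B2, -0.70 without L1 and -0.18 with the left-out transcripts on the same strand added. The log2 ratio of VEGFA to VEGFB was 1.06, 0.10 and 0.44 in B1, B2 and B3 and 2.79, -0.43 and 0.83 in L1, L2 and L3. L2 was the only animal with more VEGFB than VEGFA, and L1 had the largest excess of VEGFA. The breeds overlapped (difference 0.53, exact permutation test, two-sided, p = 0.8, adjusted 0.8), and the difference was -0.33 without L1, 1.28 without L2, 0.32 without B2 and 0.31 with the left-out transcripts added. KDR relative to the mean of PECAM1 and CDH5 was -0.29, -0.58 and -0.48 in B1, B2 and B3 and -0.54, -1.15 and -1.23 in L1, L2 and L3. L2 and L3 had less KDR for their junction genes than any other animal, and L1 fell within the Shandong black cattle, for a difference of -0.53 (exact permutation test, two-sided, p = 0.2, adjusted 0.45).

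Compared per length, the order of the mean FPKM in Shandong black cattle was VEGFA (14.3 ± 4.13), VEGFB (9.37 ± 1.70), PECAM1 (8.86 ± 0.280), FLT1 (3.48 ± 1.28), PDGFB (3.40 ± 1.84), KDR (3.32 ± 0.173), CLDN5 (2.85 ± 0.826), TEK (2.68 ± 0.298) and CDH5 (2.54 ± 0.442), each as SD with n = 3. PECAM1 and FLT1 were the only neighbours in that order whose animals did not overlap. In Luxi cattle the order was VEGFA (41.3 ± 44.0), PECAM1 (18.4 ± 9.30), VEGFB (13.3 ± 3.30), CDH5 (10 ± 5.12), FLT1 (9.09 ± 4.24), KDR (7.15 ± 5.95), PDGFB (6.07 ± 5.23), TEK (3.70 ± 1.92) and CLDN5 (2.87 ± 0.782), with overlap between all neighbours. CDH5 was thus the last of the 9 in Shandong black cattle and the fourth in Luxi cattle. The spread of log2(FPKM + 1) was wider in Luxi cattle than in Shandong black cattle for 8 of the 9 genes, as in KDR (SD 1.01 and 0.06), and CLDN5 was the exception (0.28 and 0.29).

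The other genes of the pathway were taken from lists of the VEGF, angiopoietin, PDGF and Notch systems, of endothelial and mural cells, of VEGF receptor signalling and of the regulation of VEGFA. Of the 198 genes in these lists besides the 10 above, 184 were found and 170 tested. By limma, 6 of the 170 were called higher in Luxi cattle (1.56% of all genes tested) and 1 was called lower (0.993% of all genes). Their median log2 fold change was 0.35, against 0.13 for all genes, and without L1 it was 0.29, against 0.16. Scaling moved the balance of the calls, which with size factors were 3 higher and 2 lower and with TPM 5 higher and 2 lower.

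NOS3, the endothelial nitric oxide synthase that acts downstream of KDR, was called higher in Luxi cattle. Its FPKM was 0.62, 0.70 and 0.74 in B1, B2 and B3 and 2.76, 2.40 and 2.83 in L1, L2 and L3. The 3 Luxi animals lay close together and L1 did not stand apart. All 3 Shandong black animals were under 1 FPKM, so NOS3 entered the test through Luxi cattle only. The log2 fold change was 1.12 with a standard error of 0.15 (limma, Benjamini-Hochberg adjusted p = 0.0203), and it was 1.09 without L1 (limma, Benjamini-Hochberg adjusted p = 0.0185). NOS3 was called in 9 of the 14 alternative settings in which it was tested, and the call was lost without B1, B3, L2 or L3 among others (limma, Benjamini-Hochberg adjusted p from 0.0560 to 0.122).

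Among the 10 tested genes of Notch signalling in vessel growth, 1 was called higher (1.56% of all genes), namely NOTCH4, an endothelial Notch receptor. All 10 log2 fold changes were above 0 (62.6% of all genes) with a median of 0.68. The FPKM of NOTCH4 was 0.52, 0.36 and 0.46 in B1, B2 and B3 and 3.96, 1.57 and 2.52 in L1, L2 and L3, for a log2 fold change of 1.301 (limma, Benjamini-Hochberg adjusted p = 0.0454). L1 was the highest, but the other 2 Luxi animals were also above every Shandong black animal, and without L1 the value was 1.06. Every Shandong black animal was under 1 FPKM, so NOTCH4 too entered the test through Luxi cattle only. NOTCH4 was called in 4 of 14 alternative settings, and not with size factors, with TPM, without a filter, with the left-out transcripts added or after leaving out any animal other than L1 (limma, Benjamini-Hochberg adjusted p from 0.0559 to 0.179). HEYL, a Notch target, had a log2 fold change of 1.27 and was not called (limma, Benjamini-Hochberg adjusted p = 0.0736). HES1 and RBPJ, the most abundant of the list, had 1.16 and 0.34 and overlapped between the breeds, and RBPJ turned to -0.24 with the left-out transcripts added.

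Of the 12 mural cell genes tested, 1 was called higher (1.56% of all genes), namely NOTCH3, the Notch receptor of pericytes and smooth muscle. Its FPKM was 1.00, 0.92 and 1.14 in B1, B2 and B3 and 4.36, 2.45 and 3.16 in L1, L2 and L3, a log2 fold change of 1.08 (limma, Benjamini-Hochberg adjusted p = 0.0409). The breeds were separate in NOTCH3, but it was called in only 2 of 14 alternative settings. The other mural genes did not follow it, with a median of 0.16 for the list. ACTA2 and TAGLN, the most abundant, had log2 fold changes of 0.23 and 0.17, which were -0.29 and -0.22 without L1, and MYH11 had 0.97 with overlap.

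In VEGF receptor signalling, 2 of 33 genes were called higher (1.56% of all genes), NOS3 and PXN, the focal adhesion protein paxillin. Of the log2 fold changes, 25 of 33 were above 0 (62.6% of all genes), or 22 of 33 with size factors (51.5% of all genes). PXN had an FPKM of 4.69, 4.40 and 5.14 in B1, B2 and B3 and of 8.81, 11.2 and 14.8 in L1, L2 and L3, for a log2 fold change of 1.11 (limma, Benjamini-Hochberg adjusted p = 0.0466). Here L1 was the lowest of the Luxi cattle and still above every Shandong black animal, and PXN was called in 5 of 15 alternative settings. HSPB1, the small heat shock protein at the end of the p38 branch, was the most abundant and was lower in every Luxi animal without being called (log2 fold change -1.06, limma, Benjamini-Hochberg adjusted p = 0.328), with an FPKM of 660 in L1 against 2126 to 3631 in the other 5. MAPKAPK2, the kinase of HSPB1, had 0.08, and -0.07 with size factors. PPP3R1 had 1.32 with overlap, and RAC1 had 2.07, a value that rests on B3, where RAC1 was at 0.17 FPKM while no other animal was below 28.2.

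Among the 23 tested genes of hypoxia and of the regulation of VEGFA, 2 were called higher (1.56% of all genes), DDIT4 and PFKFB3. Both are known to respond to low oxygen and to energy state. DDIT4 had an FPKM of 6.71, 9.32 and 8.52 in B1, B2 and B3 and of 58.0, 68.6 and 41.9 in L1, L2 and L3. All 3 Luxi animals were several times above every Shandong black animal, with a log2 fold change of 2.62 (limma, Benjamini-Hochberg adjusted p = 0.00914) that was called in 13 of 15 alternative settings. PFKFB3, a regulator of glycolysis, had 2.92, 6.49 and 6.03 in B1, B2 and B3 and 26.0, 347 and 129 in L1, L2 and L3, for a log2 fold change of 4.18 (limma, Benjamini-Hochberg adjusted p = 0.0492). PFKFB3 was called in 6 of 15 alternative settings, and lost its call without a trend, with reference transcripts only, with the left-out transcripts added, without a filter and after leaving out any animal other than L1 (limma, Benjamini-Hochberg adjusted p from 0.0514 to 0.177). In PFKFB3 L1 was the lowest Luxi animal, the opposite of its place in VEGFA. LDHA, the most abundant of the list, had a log2 fold change of 1.35 and was not called (limma, Benjamini-Hochberg adjusted p = 0.154). PPARGC1A, a coactivator known to induce VEGFA in muscle, was named after its values were seen. Its FPKM was 2.07, 1.70 and 1.93 in B1, B2 and B3 and 44.5, 5.18 and 7.14 in L1, L2 and L3, with L1 far above all others. It was not called (log2 fold change 2.19, limma, Benjamini-Hochberg adjusted p = 0.128). A link between PPARGC1A and the VEGFA of L1 was not tested.

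FABP4, a fatty acid binding protein of capillary endothelium and of fat cells, was the 1 listed vascular gene called lower. Its FPKM was 78.1, 48.9 and 62.8 in B1, B2 and B3 and 0.96, 3.79 and 7.003 in L1, L2 and L3, a log2 fold change of -3.90 (limma, Benjamini-Hochberg adjusted p = 0.0191) that was called in 11 of 15 alternative settings. FABP4 was the only gene called among the 17 tested genes of arteries, veins and capillaries (2.55% of all genes were called in either direction). Of these 13 were above 0 (62.6% of all genes) and 4 below, with a median of 0.47 that was 0.24 without L1. CD36, the fatty acid transporter of the same list, had -0.40, and the apelin receptor APLNR had 1.04 without being called. FABP4 is also in the list of fat cell genes, which were low in Luxi cattle, and the part of each cell type in its value was not tested.

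**Figure D4:**
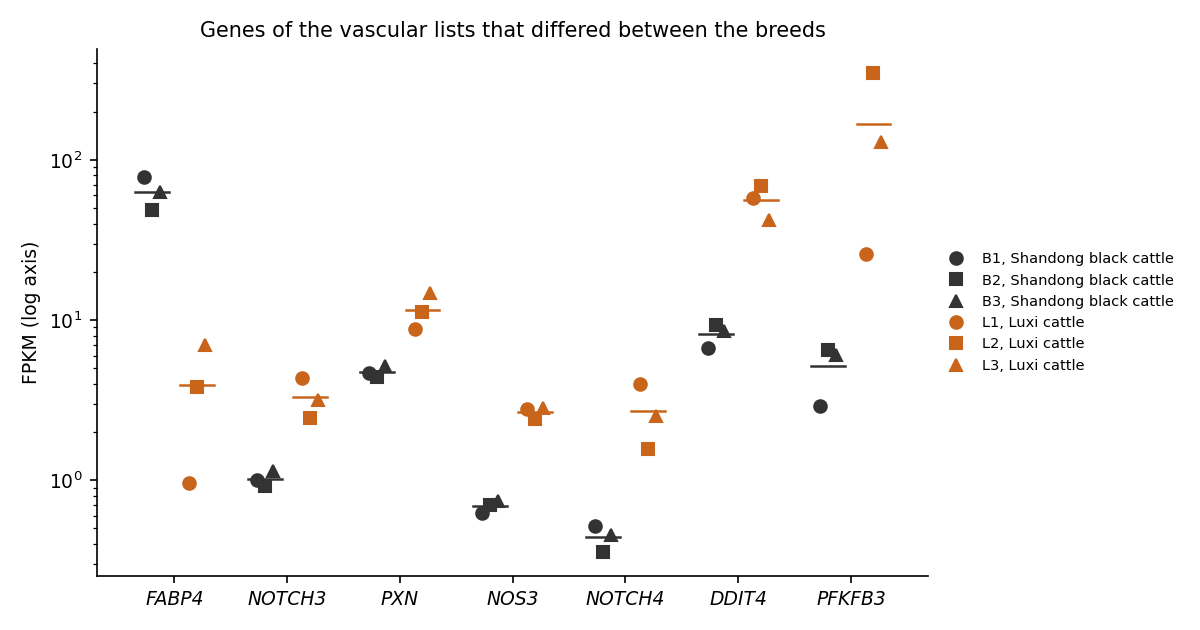
FPKM of the 7 called genes of the vascular lists in each animal on a log axis, ordered by log2 fold change, with short lines at the mean of each breed. The breeds are separate in all 7, FABP4 is the gene with lower values in Luxi cattle, and L1 is the highest Luxi animal in NOTCH3 and NOTCH4 only.

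The remaining lists held no called gene by limma (2.55% of all genes tested). Their counts at an unadjusted p under 0.05 stand against 21.9% of all genes tested. In the angiopoietin and TIE system 4 of 7 genes had an unadjusted p under 0.05 and all 4 had every Luxi animal above every Shandong black animal (20.0% of all genes). They were ANGPT4 (0.59), ANGPT2 (log2 fold change 1.41), the angiopoietin that loosens vessels, ANGPT1 (1.35), the one that stabilizes them, and PTPRB (0.96), the phosphatase that restrains TEK. ANGPT1, ANGPT2 and ANGPT4 had mean FPKM values of 0.14, 0.25 and 0.47 in Shandong black cattle and of 2.09, 2.96 and 1.23 in Luxi cattle. They entered the test through Luxi cattle only, which favoured their direction, so their count is no evidence of a breed difference. With the left-out transcripts added ANGPT1 turned to -1.04 and ANGPT2 was at 0.19, and with reference transcripts only ANGPT4 turned to -0.56, so the direction or size of these 3 genes depends on which transcripts are counted. The median of this list was 0.59, while TEK itself had 0.28. In the VEGF family list, with VEGFA, VEGFB, KDR and FLT1 included, 9 of 9 were above 0, 3 had an unadjusted p under 0.05 (FLT1, the placental growth factor PGF with 0.63, and VEGFD with 0.38), and the abundant co-receptor NRP1 had 0.24. PGF was at -0.0064 with the left-out transcripts added, and NRP1 was at -0.66 with reference transcripts only. In the PDGF system 1 of 6 had an unadjusted p under 0.05, namely PDGFD with -0.53, which turned to 0.11 with the left-out transcripts added, and PDGFRA had 0.38. Among 16 junction genes 2 had an unadjusted p under 0.05, which were CDH5 and PECAM1, a smaller share than that of all genes, and CD99 and CTNNB1 had 0.34 and 0.32. In endothelial haemostasis 3 of 8 genes had such a p, namely ADAMTS1 at 1.17, PLAT at 0.98 and SELP at 0.89, while the abundant ANXA2 had -0.55 and was not among them. SELP was at -0.16 with reference transcripts only. Of 11 inhibitors of vessel growth 3 had one, THBS1 at -1.10, ADAMTS1 again and SEMA3F at 0.45. Of 5 lymphatic genes 1 had one, PROX1 at -0.77, beside LYVE1 at 0.08 (-0.041 with size factors) and RELN at 0.35 (-0.098 with the left-out transcripts added). ANGPT4, PGF, VEGFD, SELP and SEMA3F were named after their values were seen.

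Other endothelial genes, 31 tested, are the widest check of the cell type. Of these 28 had log2 fold changes above 0 (62.6% of all genes), 17 had every Luxi animal above every Shandong black animal (20.0% of all genes), and NOS3 alone was called (2.55% of all genes), with a median log2 fold change of 0.55 that was 0.33 without L1. PODXL, a surface glycoprotein, had an FPKM of 6.04, 5.79 and 6.05 in B1, B2 and B3 and of 33.0, 12.5 and 16.1 in L1, L2 and L3 (log2 fold change 1.51, limma, Benjamini-Hochberg adjusted p = 0.0612). It was called without L1 (1.13, limma, Benjamini-Hochberg adjusted p = 0.0209). EMCN, the endomucin of capillaries and veins, showed the same order with a log2 fold change of 1.43 (limma, Benjamini-Hochberg adjusted p = 0.136), and the abundant CAV1 and ENG had 0.18 and 0.17 with overlap, where CAV1 was at -0.30 without L1. SOX17 and NCK2 were also named after their values were seen. SOX17 had a limma Benjamini-Hochberg adjusted p of 0.0466 but a log2 fold change of 0.95, under the size required, and so did NCK2 of the signalling list (0.86, limma, Benjamini-Hochberg adjusted p = 0.0431), which turned to -0.51 with the left-out transcripts added.

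L1 was the highest of the 6 animals in 23.2% of all genes tested. It was so in 25 of the 31 other endothelial genes, 8 of 10 Notch genes, 11 of 16 junction genes and 10 of 12 mural cell genes. The counts were 1 of 8 genes of haemostasis, 6 of 33 of receptor signalling and 0 of 5 lymphatic genes. They were 11 of 17 genes of arteries, veins and capillaries, 4 of 8 fibroblast genes and 4 of 10 macrophage and leukocyte genes. In fat cell genes the count was 1 of 9 and in muscle fibre genes 1 of 13. Its median over the other endothelial genes was 1.12 above the Shandong black mean on the log2 scale, beside 0.24 in L2 and 0.38 in L3. Over the mural genes it was 0.93 in L1, -0.39 in L2 and 0.09 in L3. The pericyte gene RGS5, named after its values were seen, had an FPKM of 131 in L1 and of 8.22 to 18.7 in the other 5 animals. The mural gene CSPG4 went the other way, with 1.415 in L1 and 1.495, 1.843 and 1.817 in B1, B2 and B3. L1 thus stood above the other animals in most mural cell genes, as in most of the other endothelial genes.

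Other cell types in the muscle differed too. The 10 fat cell genes had a summed FPKM of 171.5 to 231 in Shandong black cattle and of 54.7 to 89.3 in Luxi cattle, with 5 of 9 tested genes called lower (0.993% of all genes) and LEP at 0 in L1. Of the 5, PLIN1 was called in all 15 alternative settings, FABP4 in 11 of 15, CIDEC in 10 of 15, LIPE in 8 of 14 and ADIPOQ in 6 of 15, and with reference transcripts only ADIPOQ was not called (limma, Benjamini-Hochberg adjusted p = 0.0536). The 11 macrophage and leukocyte genes summed to 95.9 to 127 and 59.3 to 155, none was called, and 2 of 10 had an unadjusted p under 0.05. Of the macrophage genes, C1QA had a log2 fold change of -1.44, CSF1R had -0.66, and the abundant CD74 and C1QB had -0.14 (0.28 without L2) and -0.47. The 8 fibroblast genes summed to 122 to 218 and 414 to 524, and COL1A2 and COL3A1 were called higher (1.56% of all genes), COL3A1 with a log2 fold change of 2.94 and in 14 of 15 alternative settings, COL1A2 in 8 of 15. DCN and POSTN of that list had 0.60 and -2.79. The 4 platelet and red cell genes found summed to 0.54 to 0.85 and 0.20 to 1.34 FPKM and none reached the test, with PF4 at 0 in all animals but B2. The 13 muscle fibre genes summed to 45110 to 57780 in Shandong black cattle and to 25840, 77010 and 67790 in L1, L2 and L3. L1 was the lowest of all animals in this sum, in which ACTA1 was the most abundant gene. The fibre genes of L1 were not low in general, with a median 0.09 above the Shandong black mean on the log2 scale. In L1, 5 of the 13 (38.5%) lay above all Shandong black animals, beside 40.3% of all genes. Of the fibre genes TNNI1 was called lower (log2 fold change -2.32), but in 7 of 15 alternative settings only, and with reference transcripts only it was at -1.199 (limma, Benjamini-Hochberg adjusted p = 0.202). TNNT3 and MYH2 had 2.95 and 3.57 without being called. The log2 ratio of the coverage of the last over the first exons of long transcripts was 0.00 in L1 and -0.52 to -0.20 in the other 5. Coverage was thus about even in L1 and lower at the 3′ end in the other animals. The part of fat, fibroblast and fibre content and of coverage along the transcripts in the values of the 9 genes was not tested.

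**Figure D5:**
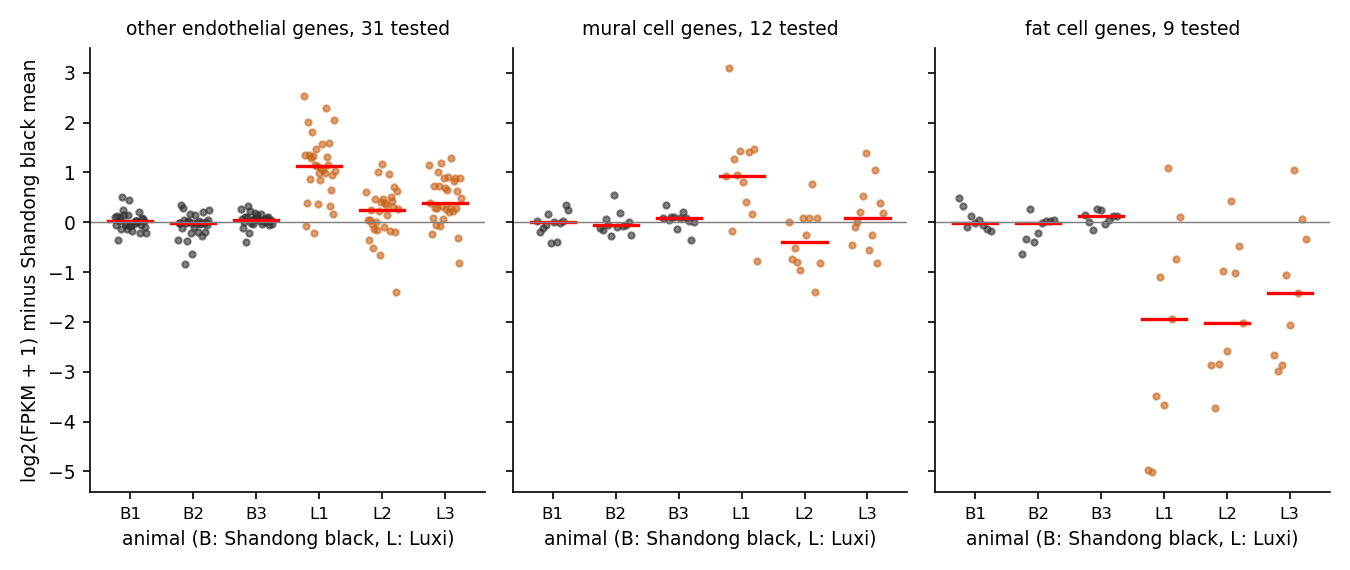
Log2(FPKM + 1) of each tested gene minus its mean in Shandong black cattle, by animal, for other endothelial genes, mural cell genes and fat cell genes. Each point is a gene and the red line is the median, which in L1 is 1.12 for the endothelial and 0.93 for the mural genes, while fat cell genes are low in all 3 Luxi animals.

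Among all genes tested, those whose log2(FPKM + 1) followed VEGFA most closely over the 6 animals, by Euclidean distance after centring, were GCFC2 (distance 0.59), MIR145 (0.61), ETS1 (0.68), PGRMC1 (0.69) and GNG11 (0.74). ETS1, for example, had an FPKM of 7.15, 4.41 and 6.38 in B1, B2 and B3 and of 26.5, 3.68 and 5.63 in L1, L2 and L3. The genes closest to KDR were NTN4 (0.20), KIAA0040 (0.22), DGKH (0.29), PRAG1 (0.30) and LOC101903413 (0.30). NTN4 had 0.61, 0.70 and 0.73 in B1, B2 and B3 and 5.32, 0.45 and 1.17 in L1, L2 and L3. In all 10 genes L1 was the highest animal, which follows from choosing them for their likeness to VEGFA and KDR. MIR145 and LOC101903413 were at most 0.34 and 0.31 FPKM outside L1 and entered the test through L1 only. With 6 animals this likeness is a description only.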

How the data were processed

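Per the labels and the study's Methods, total RNA of longissimus dorsi was sequenced, and the authors used Fastp for trimming, HISAT for alignment to ARS-UCD1.2 and, for each library, StringTie (version 1.3.3b per the file headers, with a strand option and the NCBI annotation). The deposited coverage, FPKM and TPM of each transcript are estimates and not counts, so no count test was run. Gene FPKM was the sum of the reference transcripts of a gene name and of those assembled transcripts of which 50% or more of the bases lay on its exons and strand. Other assembled transcripts, 21.6 to 29.8% of the FPKM of a library, were left out, and a transcript missing in an animal was 0. Genes whose mean reached 1 FPKM in either breed were fitted with limma 3.58.1 (R 4.3.3, trend, no covariate) on log2(FPKM + 1), after a check on simulated data. Each library is a different animal. Alternatives were another pseudocount (0.1), filters, TPM, size factors, reference transcripts only, no trend, a replicate block and leaving out each animal. The 9 genes are all given. From each other list, called genes, the 2 with the highest mean FPKM and the 2 with the largest fold change were named, and for VEGFA and KDR the 5 nearest genes. Cuffdiff, which the study used, needs alignments and was not run. The genes and lists were chosen with earlier results of these data known. Sequences are not shown.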

Additional observations from a re-analysis of the deposited data

How the results depend on the processing

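The number of the 9 genes called was 0 under every setting except that it was 1 without L2, and it ranged from 0 to 1 over the fits that left out 1 animal. Their median log2 fold change, 0.67 with all animals, ranged from 0.16 without L1 to 1.10 without L2, and stayed between 0.55 and 0.93 under the other alternatives. TEK and PDGFB turned from above to below 0 without L1, and over the fits that left out 1 animal TEK ranged from -0.026 to 0.58 and PDGFB from -0.045 to 0.88. CLDN5 turned below 0 with TPM (-0.096) and size factors (-0.11), and without B1 (-0.069), B2 (-0.084) or L3 (-0.15), with a highest value of 0.18 without B3. The log2 ratio of VEGFA to VEGFB, 0.53, ranged from -0.33 without L1 to 1.28 without L2. The number of called genes in the vascular lists, 7 with all animals, was 2 without a filter, 4 at a mean FPKM of at least 5, 4 with the replicate block, and 3 with left-out transcripts on the same strand added, which was chosen after seeing the data. Over the fits without 1 animal it ranged from 0 without B1 or without B3 to 20 without L1, and it was 4 without B2, 3 without L2 and 2 without L3. Without L1 the calls rose over all genes too, to 464 higher and 126 lower of 9554 tested. With all animals these were 152 and 97 of 9765. The 20 vascular genes were 18 higher and 2 lower of 175 tested. Shares over all genes in the other fits are not given here. Causes were not tested. The replicate numbers are shared between the breeds but pair no animals by origin, and deviations of same-numbered animals correlated by 0.09, 0.09 and 0.08, although each animal correlated best with its own number. The deviations were centred within each breed, which ties these correlations to each other, so their order is no test of a pairing. Under the replicate block none of the 9 genes was called, with an adjusted p of 0.0977 for CDH5 by limma with Benjamini-Hochberg adjustment. The block cannot change the difference in the log2 ratio of KDR to FLT1, which was -0.46 again. An exact sign-flip test of that difference gave p = 0.25, the lowest value it can give here. Of the other called genes named, NOS3, NOTCH4, NOTCH3, PXN, ADIPOQ, LIPE and TNNI1 were not called under the block, with adjusted p from 0.0511 to 0.0679 by limma. The depth behind each FPKM is known as aligned bases only, so counting error at the low levels of FLT1, KDR and TEK is not given.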
